A study of Mus musculus with 6 samples.

Results

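Genes of ribosome biogenesis and RNA polymerase I transcription, 47 in all, were examined in liver RNA of 6 mice, measured on 1-colour arrays with 1 array per mouse. They were chosen by name, as nucleolar scaffold proteins, core proteins of the small nucleolar ribonucleoprotein particles (snoRNPs), assembly factors of both ribosomal subunits, and the RNA polymerase I machinery. Earlier results of these data were known when these genes, and the related lists below, were chosen. A probe set counted for a gene when its annotation gave that symbol alone. By this rule 45 of the 47 listed genes had a probe set, out of 19938 genes named on the array. Npm3 and Noc2l had none and were not analysed here, and Fbl and Wdr12 had 2 each, so that 47 probe sets covered the 45 genes.

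The 3 knock-in mice (replicates 1, 3 and 5) were LmnaG609G/G609G, homozygous for an allele of the lamin A/C gene that keeps the glycine at that codon and alters splicing, a model of Hutchinson-Gilford progeria. The 3 control mice (replicates 2, 4 and 6) were wild-type, Lmna+/+. All 6 were females of the C57BL/6 background, 3 months old, and had been starved for 6 h before they were killed. The allele is in every cell of the animal. The p-values and standard errors rest on the spread between 3 mice of each genotype, which limma moderated with that of all probe sets tested. Array medians lay between 97.0 and 104 intensity units, and arrays give no read depth. The labelled tissue was borne out by 10 hepatocyte markers, whose means ran from 7053 to 17440.

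Ribosomes are made in the nucleolus, where RNA polymerase I transcribes the ribosomal RNA precursor. Box C/D and box H/ACA snoRNPs guide the methylation and pseudouridylation of that precursor, the small subunit processome folds and cleaves the part that becomes the small subunit, and a separate series of factors builds the large subunit. Many of these genes are known targets of the transcription factor Myc, and their output is known to follow growth signals and nutrients in liver.

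Values are whole-number intensities on a linear scale, listed in the order knock-in replicates 1, 3 and 5 and then wild-type replicates 2, 4 and 6. Log2 changes are knock-in minus wild-type of log2(intensity + 16), and folds are on that scale. A gene was called when its limma p-value, adjusted over all 26634 probe sets tested, lay below 0.05. Where a gene had several probe sets, the one with the highest mean stood for it.

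Ribosome biogenesis genes were higher in knock-in liver in 30 of 45 cases and lower in 0, with 15 not called. The dimmer probe set of Wdr12, which did not stand for the gene in these counts, was called lower. Across all 16157 named genes tested, 13.0% were called higher and 13.7% lower. The median log2 change of the 45 genes was 0.54 (1.46-fold), beside 0.00 for all named genes tested, and 40 of the 45 changes were positive. The changes ran from -0.39 (Wdr12) to 1.57 (Rrp1b). In 37 of the 45 genes every knock-in mouse read above every wild-type mouse, and in 0 every knock-in mouse read below; across all named genes tested these shares were 21.6% and 21.3%. With arrays centred on their medians, which took the share of calls that were higher from 57.7% to 47.7% over all probe sets, 26 of the 45 genes were higher and 0 lower. In whole liver RNA, a change in the number of cells of a type and a change in RNA per cell cannot be told apart.

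**Figure D1:**
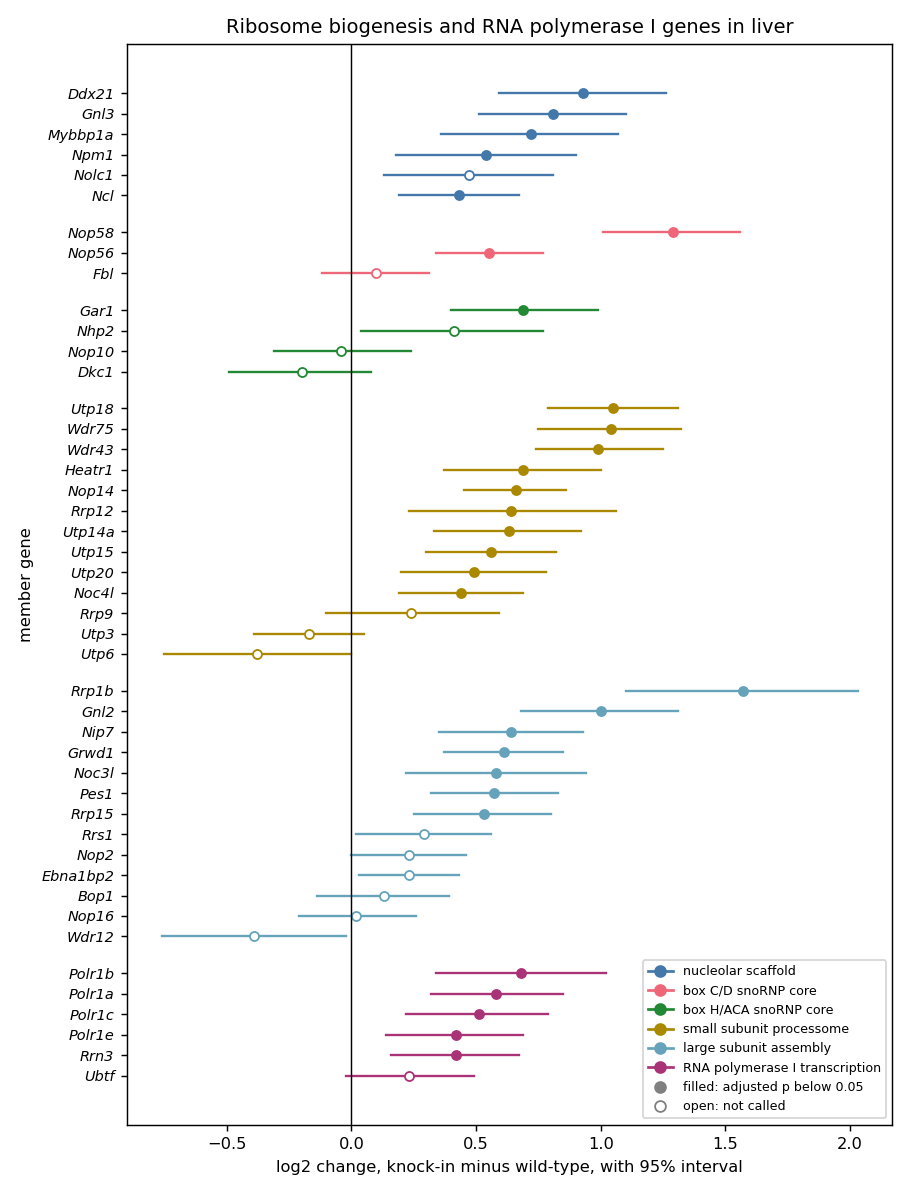
Log2 change (knock-in minus wild-type, x axis) of the 45 genes (y axis, grouped by role), with 95% limma intervals, n = 3 mice per genotype. Filled points were called at an adjusted p below 0.05. The 30 filled points all lie above 0, from Polr1e and Rrn3 at 0.42 to Rrp1b at 1.57.

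The promoters of the 3 members with the smallest p-values among those that rose are shown because these genes moved together and their starts can be read for the same short motifs. They are the 250 bases before the RefSeq start (GRCm38.p6), on the strand of the gene, at chr1:59684756-59685005 (plus strand) for Nop58, chr11:93885767-93886016 (minus strand) for Utp18 and chr17:71615965-71616214 (plus strand) for Wdr43. Capitals mark the E-box CACGTG, the letters that Myc and its partner Max are known to bind, and the ETS-type motif CCGGAAG or its reverse complement CTTCCGG.
Nop58: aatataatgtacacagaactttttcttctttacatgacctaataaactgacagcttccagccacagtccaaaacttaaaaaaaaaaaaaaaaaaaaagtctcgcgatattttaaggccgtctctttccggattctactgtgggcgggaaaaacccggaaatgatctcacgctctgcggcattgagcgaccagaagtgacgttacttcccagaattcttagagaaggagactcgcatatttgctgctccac
Utp18: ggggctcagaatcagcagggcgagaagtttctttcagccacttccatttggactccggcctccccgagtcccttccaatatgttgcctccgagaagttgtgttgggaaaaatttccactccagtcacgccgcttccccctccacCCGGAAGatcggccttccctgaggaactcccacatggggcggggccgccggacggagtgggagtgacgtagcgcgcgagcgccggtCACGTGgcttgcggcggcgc
Wdr43: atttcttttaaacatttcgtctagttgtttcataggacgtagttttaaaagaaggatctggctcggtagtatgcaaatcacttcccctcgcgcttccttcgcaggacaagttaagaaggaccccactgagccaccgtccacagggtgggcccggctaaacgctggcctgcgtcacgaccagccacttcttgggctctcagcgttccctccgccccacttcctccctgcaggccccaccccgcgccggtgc

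The stretch before the start of Utp18 holds both motifs, with CACGTG starting 20 bases and CCGGAAG 106 bases before the start. A further match of the ETS-type letters lies 7 bases after that start, at chr11:93885737-93885766 (minus strand), within agactcCTTCCGGctccccggggccgggcc. Wdr43 holds CACGTG 18 bases after its start, at chr17:71616220-71616249 (plus strand), within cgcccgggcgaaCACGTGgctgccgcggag. The Nop58 window holds neither set of letters. The promoter table, with windows from 250 bases before to 50 after a start, held 38 of the 45 genes. Both strands were searched, matches of the motifs that overlapped each other were both counted, and a gene with several windows counted when any held the motif. CACGTG lay in 8 of the 38 genes (21.1%), namely Mybbp1a, Wdr43, Utp18, Utp20, Nop2, Pes1, Grwd1 and Rrn3. The same letters lay in 10.6% of 12732 tested genes with a window and in 7.15% of all 32851 windows. Of 27 members called higher with a window 7 held it, and of 11 not called 1 (Nop2). CCGGAAG lay in 15 of the 38 genes (39.5%), against 15.9% of tested genes and 8.86% of all windows, and was in 10 of the 27 called higher and 5 of the 11 not called. These matches are descriptions of letters in a window and say nothing of binding in these livers.

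Nucleolar scaffold genes rose in 5 of 6 cases (median log2 change 0.63), and all 6 were separated between the genotypes. Ddx21, an RNA helicase that couples RNA polymerase I transcription to RNA processing, read 1314, 1051 and 1502 against 624, 656 and 715, a log2 change of 0.93 ± 0.14 (SE; 1.90-fold; limma adjusted p = 0.00385). Gnl3 encodes nucleostemin, a nucleolar GTPase of proliferating cells. It read 816, 726 and 844 against 495, 383 and 472, a change of 0.81 ± 0.13 (adjusted p = 0.00402). Mybbp1a, a nucleolar protein that binds Myb and p53, read 817, 698 and 1045 against 493, 481 and 545 (0.72 ± 0.15; adjusted p = 0.0131). The lowest knock-in value of each of these genes came from knock-in replicate 3. Ncl, which encodes nucleolin, the abundant RNA-binding protein of the nucleolus, read 2256, 1997 and 2102 against 1656, 1396 and 1664 (0.43 ± 0.10; adjusted p = 0.0216). Npm1, the nucleophosmin chaperone gene, changed by 0.54 ± 0.16, with knock-in replicate 3 at 744 and the highest wild-type mouse at 669. Its call was lost without any 1 of the mice other than knock-in replicate 3 (adjusted p = 0.0825 to 0.121), while that of Ncl was lost on leaving out knock-in replicate 1, knock-in replicate 5 or wild-type replicate 4 (adjusted p = 0.0507 to 0.0874). Both were also lost with centred arrays (adjusted p = 0.0725 for Npm1 and 0.0531 for Ncl), and Npm1 with no filter (adjusted p = 0.0575). Probes for Npm1 may hybridise with transcripts of near-identical copies. Nolc1, a chaperone of snoRNPs, read 507, 419 and 618 against 345, 391 and 353. Its groups did not overlap, but it was not called (0.47 ± 0.15; adjusted p = 0.0525). It was called on leaving out knock-in replicate 3 (adjusted p = 0.0117), and with array weights, with no trend or with the stricter filter on dim probe sets (adjusted p = 0.0160 to 0.0463).

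The core proteins of box C/D particles differed in their changes. Nop58 and its partner Nop56 form the scaffold on which the guide RNA is held, and Fbl encodes fibrillarin, the methyltransferase. Nop58 read 385, 382 and 453 in knock-in and 138, 161 and 173 in wild-type liver, a log2 change of 1.29 ± 0.12 (2.44-fold; adjusted p = 0.000674), the smallest p among the members. Every knock-in value was over every wild-type value by a wide margin. Nop56 read 887, 941 and 943 against 622, 590 and 661 (0.55 ± 0.09; 1.47-fold; adjusted p = 0.00513). Fbl read 537, 534 and 596 against 523, 506 and 525 on its brighter probe set, a change of 0.10 ± 0.09 that was not called (adjusted p = 0.512; 95% interval -0.12 to 0.31). On its other probe set Fbl read 446, 427 and 482 against 423, 467 and 425, and the genotypes overlapped (0.04 ± 0.10; adjusted p = 0.808). The intervals of Nop58 (1.01 to 1.56) and Nop56 (0.34 to 0.77) lie above that of Fbl, though the difference between genes was not itself tested.

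Among the 4 core proteins of box H/ACA particles only Gar1 rose, under each scaling tried. Gar1 read 368, 350 and 430 against 250, 197 and 245, a change of 0.69 ± 0.13 (1.62-fold; adjusted p = 0.00751). Nhp2, another core protein, read 248, 226 and 334 against 188, 179 and 225 and was not called (0.41 ± 0.16; adjusted p = 0.0996). In that gene knock-in replicate 3 lay next to wild-type replicate 6, and on leaving out knock-in replicate 3 it was called (adjusted p = 0.0490). Dkc1, the gene of the pseudouridine synthase dyskerin, had a change of -0.20 ± 0.12 (adjusted p = 0.282; 95% interval -0.49 to 0.08). Nop10 had a change of -0.04 ± 0.12 (adjusted p = 0.873; 95% interval -0.31 to 0.24), which was 0.00 with quantile normalization. Both genes overlapped between the genotypes.

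Small subunit processome genes rose in 10 of 13 cases, with a median log2 change of 0.63 (1.54-fold). Utp18, a WD-repeat protein of the UTP-B subcomplex, read 405, 346 and 409 against 177, 163 and 197, a change of 1.05 ± 0.11 (2.06-fold; adjusted p = 0.00112). Wdr43 and Wdr75 belong to the UTP-A subcomplex, which binds the precursor first and is needed for RNA polymerase I transcription. Wdr43 read 825, 791 and 896 against 430, 368 and 444 (0.99 ± 0.11; adjusted p = 0.00126), and Wdr75 read 668, 544 and 727 against 297, 313 and 304 (1.04 ± 0.12; adjusted p = 0.00161). Nop14, a factor of the same large complex, read 428, 470 and 452 against 282, 276 and 279 (0.66 ± 0.09; adjusted p = 0.00233). In each of these 4 genes the knock-in and wild-type mice formed separate ranges. Heatr1 (0.69 ± 0.14) and Utp15 (0.56 ± 0.11), the other listed UTP-A genes, also rose, as did Utp14a (0.63 ± 0.13), Rrp12 (0.64 ± 0.18), Utp20 (0.49 ± 0.12) and Noc4l (0.44 ± 0.11).

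Some of these calls did not hold with fewer mice. That of Rrp12 was lost without any 1 mouse other than knock-in replicate 3 (adjusted p = 0.0603 to 0.114), while its log2 change stayed between 0.46 and 0.71. That of Utp20 was lost without any of the same 5 mice (adjusted p = 0.0521 to 0.0729), with log2 changes of 0.39 to 0.54. Leaving out wild-type replicate 2, wild-type replicate 6 or knock-in replicate 5 ended that of Noc4l (log2 change 0.35 to 0.43; adjusted p = 0.0512 to 0.0784). Rrp12 was also lost with no filter and with quantile normalization (adjusted p = 0.0512 to 0.0565). The 3 genes not called were Rrp9, Utp3 and Utp6. Rrp9, a U3 snoRNP protein, changed by 0.24 ± 0.15 (adjusted p = 0.283). Utp6, a UTP-B protein, had the largest change of these, with 260, 323 and 221 in knock-in and 371, 294 and 388 in wild-type liver (-0.38 ± 0.16; adjusted p = 0.134). Knock-in replicate 3 read above wild-type replicate 4 in that gene, and it was called lower on leaving out knock-in replicate 3 (adjusted p = 0.0408) or with array weights (adjusted p = 0.0355). Utp3 changed by -0.17 ± 0.09 (adjusted p = 0.242).

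Large subunit assembly genes rose in 7 of 13 cases (median log2 change 0.53) and included the largest change of any member. Rrp1b, a nucleolar protein that also regulates transcription, read 367, 245 and 457 in knock-in against 104, 105 and 109 in wild-type liver, a change of 1.57 ± 0.20 (2.96-fold; adjusted p = 0.00198). The wild-type mice lay close together, while the knock-in mice were spread and knock-in replicate 3 was the lowest of them. Gnl2, a GTPase that acts on the large subunit before its export, read 1471, 1059 and 1399 against 648, 648 and 629 (1.00 ± 0.14; 2.00-fold; adjusted p = 0.00247). Grwd1, a histone-binding WD-repeat protein found with pre-ribosomes, read 271, 245 and 288 against 169, 157 and 184 (0.61 ± 0.10; adjusted p = 0.00513). Pes1 encodes pescadillo, which joins Bop1 and Wdr12 in the PeBoW complex of large subunit assembly. Pes1 read 466, 444 and 494 against 344, 274 and 312 (0.57 ± 0.11; adjusted p = 0.00904). Nip7 (0.64 ± 0.12), Noc3l (0.58 ± 0.15) and Rrp15 (0.53 ± 0.12) also rose. The call of Rrp15 was lost on leaving out knock-in replicate 1 (adjusted p = 0.0561). Leaving out wild-type replicate 2, knock-in replicate 1 or knock-in replicate 5 ended that of Noc3l, as did the fit with centred arrays (adjusted p = 0.0536 to 0.0869).

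The partners of Pes1 had other values. Bop1 read 566, 533 and 641 against 479, 538 and 572 and was not called (0.13 ± 0.11; adjusted p = 0.481; 95% interval -0.14 to 0.39). Wdr12 was the member with the largest negative change. Its brighter probe set read 156, 170 and 117 against 199, 167 and 228 (-0.39 ± 0.16; adjusted p = 0.112), with knock-in replicate 3 above wild-type replicate 4. Its dimmer probe set read 83, 97 and 72 against 109, 118 and 138, without overlap, and was called lower (-0.46 ± 0.12; adjusted p = 0.0276). With array weights the brighter probe set was called lower too (adjusted p = 0.0429). The other large subunit genes were not called and had changes of 0.29 ± 0.11 (Rrs1), 0.23 ± 0.10 (Nop2, a ribosomal RNA methyltransferase), 0.23 ± 0.09 (Ebna1bp2) and 0.02 ± 0.10 (Nop16). Leaving out knock-in replicate 3, or using array weights, brought a call of Rrs1 (adjusted p = 0.0236 and 0.0456). Nop16 was -0.03 with centred arrays, so it had no settled direction.

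RNA polymerase I transcription genes rose in 5 of 6 cases, with a median log2 change of 0.46 (1.38-fold), and in all 6 every knock-in mouse lay above every wild-type mouse. Polr1a and Polr1b encode the largest subunits, which form the catalytic centre. Polr1a read 679, 749 and 668 against 406, 479 and 501 (0.58 ± 0.11; adjusted p = 0.00900). Polr1b read 721, 710 and 967 against 439, 493 and 537 (0.68 ± 0.15; adjusted p = 0.0137), a call lost on leaving out wild-type replicate 2 (adjusted p = 0.0536). Polr1c, a subunit shared with RNA polymerase III, read 1069, 976 and 1037 against 792, 607 and 769 (0.51 ± 0.12; adjusted p = 0.0217). Rrn3, the initiation factor TIF-IA that links the polymerase to growth signals, read 713, 798 and 776 against 629, 559 and 514 (0.42 ± 0.11; adjusted p = 0.0275). Polr1e, a subunit specific to this polymerase, rose by 0.42 ± 0.12 (adjusted p = 0.0361). Ubtf encodes UBF, which keeps ribosomal DNA repeats open. It read 1176, 965 and 1092 against 954, 844 and 942, and was not called (0.23 ± 0.11; adjusted p = 0.168; 95% interval -0.02 to 0.49). The call of Polr1c was lost on leaving out knock-in replicate 1 or knock-in replicate 5 (adjusted p = 0.0561 to 0.0822). Rrn3 lost its call on leaving out any 1 mouse other than wild-type replicate 2 (adjusted p = 0.0507 to 0.107). That of Polr1e was lost on leaving out knock-in replicate 5 or any 1 wild-type mouse (adjusted p = 0.0554 to 0.101), and with centred arrays, quantile normalization or no filter (adjusted p = 0.0515 to 0.0561).

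The members kept a similar order among mice. Set against the wild-type mean of each gene, the median log2 value of the 45 genes was 0.55 in knock-in replicate 1, 0.37 in knock-in replicate 3 and 0.65 in knock-in replicate 5. Knock-in replicate 3 was the lowest knock-in mouse in 33 of the 45 genes and knock-in replicate 5 the highest in 28. Among wild-type mice, replicate 4 was the lowest in 28 and replicate 6 the highest in 27. The same counts were not made over all genes tested, so that this order is not shown to be particular to the members. Without knock-in replicate 3, 32 members were called higher and 1 (Utp6) lower, and without knock-in replicate 5, 21 were called higher and 0 lower. Of the 30 members called higher, 19 were called under all 16 alternative settings, which included leaving out each mouse.

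**Figure D2:**
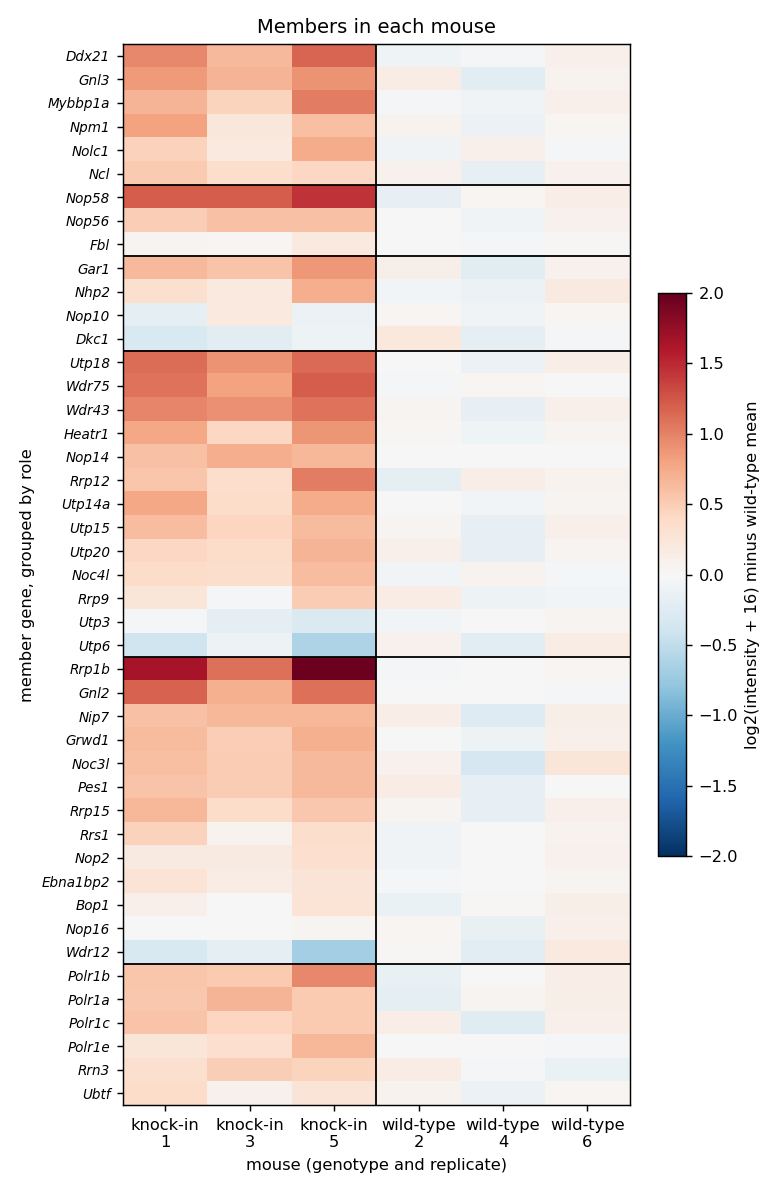
Log2(intensity + 16) of the 45 genes (rows, grouped by role) in each of the 6 mice (columns), minus the wild-type mean of the gene. Red is above and blue below that mean. Knock-in columns are mostly red, palest in knock-in replicate 3, and Wdr12, Utp6, Utp3 and Dkc1 are blue in all 3 knock-in mice.

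By RefSeq positions, 3 member genes hold within their spans snoRNA genes that had a probe set of their own, and these were looked at after the members' values were seen. SnoRNAs of this kind are cut from introns of their host transcript, and guide the modification of ribosomal and other RNAs. Within Ncl, Snora75 read 152, 151 and 137 against 63, 43 and 78 (1.10 ± 0.16; adjusted p = 0.00326), and Snord82 read 1355, 1477 and 884 against 958, 376 and 829 (0.84 ± 0.35; adjusted p = 0.125). Snora75 was separated between the genotypes, and Snord82 was not. Within Nop56, Snord57 read 1929, 2337 and 1661 against 1197, 1239 and 1286 (0.65 ± 0.13; adjusted p = 0.0107). Within Wdr43, Snord53 read 208, 277 and 300 against 143, 116 and 145 (0.87 ± 0.15; adjusted p = 0.00583). So 3 of these 4 snoRNAs rose, as their 3 hosts did, and a probe set for a snoRNA may also read its host's unspliced transcript. SnoRNA signal as a whole differed between mice of the same genotype. Summed over 51 snoRNA probe sets it was 39410, 52414 and 29711 in knock-in and 42714, 18196 and 44622 in wild-type mice, with wild-type replicate 4 the lowest wild-type mouse in 42 of the 51. Of the 51, 7 were called higher (13.7%) and 1 lower (1.96%), beside 14.9% and 10.9% of all probe sets tested, so that snoRNA probe sets as a whole were not called higher more often than others. The part of this spread in the snoRNA values was not tested.

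**Figure D3:**
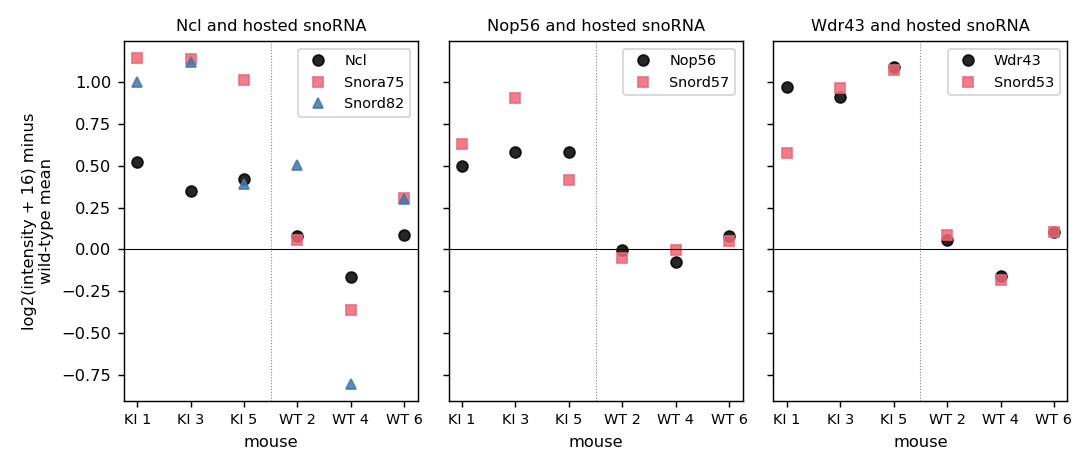
Log2(intensity + 16) minus the wild-type mean (y axis) of Ncl, Nop56 and Wdr43 (black circles) and the snoRNAs within them (coloured) in each mouse (x axis; KI, knock-in; WT, wild-type). Snora75, Snord57, Snord53 and Snord82 are above 0 in all 3 knock-in mice. Snord82 overlaps between the genotypes and ranges from knock-in replicate 3 (1477 units) to wild-type replicate 4 (376 units).

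Other genes of the pathway, from lists that hold none of the members, rose in 54 of 114 cases and fell in 0 (median log2 change 0.37). These lists too were chosen with earlier results of these data known. Large subunit factors rose in 25 of 38 cases. Nmd3, the export adaptor of the large subunit, read 1519, 1589 and 1641 against 769, 717 and 783 (1.05 ± 0.09; 2.07-fold; adjusted p = 0.000546). Rsl1d1 rose by 1.14 ± 0.10 and Zfp622 by 0.97 ± 0.11. Small subunit factors rose in 19 of 39 cases, among them Utp4 (1.22 ± 0.13), a UTP-A protein, the kinase gene Riok1 (0.83 ± 0.10) and Imp3 (0.66 ± 0.08). Other nucleolar and snoRNP factors rose in 9 of 24 cases, with Nufip1, which helps assemble box C/D particles, at 1.21 ± 0.14, Nol8 at 1.04 ± 0.11 and Shq1, a dyskerin chaperone, at 0.76 ± 0.10. Of 13 other RNA polymerase I factors 1 (7.69%) was called higher, beside 13.0% of all named genes tested. That list was thus not called higher more often than genes in general. The 1 was Twistnb, now called Polr1f, a stalk subunit (0.55 ± 0.09), and the median of that list was 0.17.

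Of 20 RNA polymerase III genes 5 were called higher and 3 lower (15.0%), beside 13.0% and 13.7% of all named genes, so that the share called lower was near the background (median log2 change 0.13). Crcp, a subunit of that polymerase, read 2034, 1585 and 2383 against 421, 528 and 521 (1.98 ± 0.17; 3.95-fold; adjusted p = 0.000519). Maf1, the repressor of RNA polymerase III, rose by 1.11 ± 0.14 and Polr3f by 0.78 ± 0.14. The alternative subunits Polr3gl (-0.52 ± 0.13) and Polr3g (-0.45 ± 0.12) fell together with Polr3k (-0.41 ± 0.11). Each of these 3 calls was lost on leaving out knock-in replicate 5 (adjusted p = 0.0687 to 0.0909) or wild-type replicate 2 (adjusted p = 0.0646 to 0.101). Leaving out wild-type replicate 6 or knock-in replicate 1 also ended those of Polr3gl and Polr3k (adjusted p = 0.0504 to 0.0998). That of Polr3g ended on leaving out knock-in replicate 3 or wild-type replicate 4 and with array weights (adjusted p = 0.0509 to 0.0635).

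Myc and some of its network were higher in knock-in liver, with 5 of 12 genes higher and 0 lower (median log2 change 0.29). The share called higher was 41.7%, beside 13.0% of all named genes tested. Myc read 1877, 1536 and 2963 against 188, 247 and 428, a change of 2.84 ± 0.33 (7.16-fold; adjusted p = 0.00144). Its lowest knock-in value came from knock-in replicate 3 and its highest from knock-in replicate 5. Among wild-type mice Myc was lowest in replicate 2, whereas most members were lowest in replicate 4. A link between Myc and the members was not tested. Mxd1, whose product competes with Myc for Max, rose by 0.67 ± 0.12, and Mlxip, a glucose-responsive relative, by 0.85 ± 0.16. The other genes called in that list were Mnt (0.54 ± 0.11) and Mxi1 (0.46 ± 0.10). Cytosolic ribosomal protein genes, the products that the assembly factors handle, rose in 26 of 54 cases and fell in 0, with a median of 0.30 (1.23-fold). Rpl9 rose by 0.54 ± 0.08, Rpl23 by 0.45 ± 0.07 and Rps28 by 0.54 ± 0.09. Many ribosomal protein probe sets may hybridise with processed pseudogenes, and 24 of the 78 listed genes had no tested probe set with a single symbol.

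**Figure D4:**
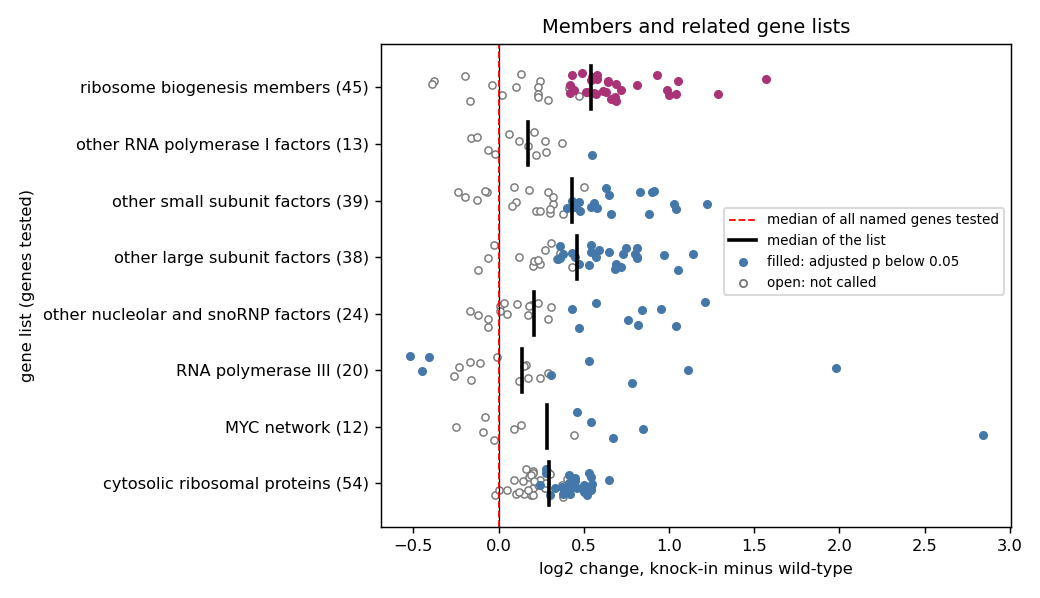
Log2 change (x axis) of each tested gene in the 45 members and 7 related lists (y axis, number of genes in brackets). Filled points were called at an adjusted p below 0.05, black bars are list medians and the dashed line is the median of all named genes tested. The members have the highest median, 0.54, and Myc lies far to the right of its list at 2.84.

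Markers of other cell types and of cell division were measured on the same arrays, and their part in the result was not tested. Sums are of the intensities of the markers tested. Across all named genes tested, 13.0% were called higher and 13.7% lower. Of 11 markers of dividing cells 1 rose (Pcna, 0.60 ± 0.10) and 1 fell (Ccnb2, -0.63 ± 0.08), with a median log2 change of -0.01. Their sum was 2272 to 2685 in knock-in and 1865 to 2111 in wild-type mice, and 896 to 1064 against 914 to 1141 without Pcna. Hepatocyte markers (2 of 10 higher, median 0.00) summed to 138681 to 149642 against 133444 to 137431, and to 119441 to 129597 against 119558 to 124937 without Tat. Stellate cell markers (1 of 10 higher and 2 lower, median -0.19) summed to 8177 to 9680 against 7452 to 8548. Without Dcn, the 1 that rose, the other 9 summed to 2199 to 2944 against 3227 to 3657, so that every knock-in mouse was lower in that sum. Only 2 of those 9 were called lower, and their changes ran from -1.16 (Lrat) to 0.07 (Pdgfrb). The share of the 10 called lower was 20.0%, beside 13.7% of all named genes tested. Neutrophil markers summed to 549 to 570 against 401 to 465 (3 of 7, or 42.9%, higher, median 0.24), and to 467 to 474 against 367 to 431 without Retnlg. Lymphocyte markers summed to 441 to 458 against 467 to 535 (1 of 5 lower, median -0.11). Without Cd79b, the 1 called lower, the other 4 summed to 359 to 376 against 356 to 410, so that the genotypes overlapped. Kupffer cell and macrophage markers summed to 4106 to 7287 against 6250 to 11009, with 1 of 12 lower and a median of -0.37. That call, of Adgre1 (-1.06 ± 0.32; adjusted p = 0.0449), was lost with array weights, a robust prior or no filter (adjusted p = 0.0503 to 0.0744). With 1 mouse fewer it held only without knock-in replicate 3 or without wild-type replicate 6, and missed the threshold in the other 4 cases (adjusted p = 0.0866 to 0.127). Sinusoidal endothelial markers summed to 7423 to 9350 against 8845 to 9507 (1 of 10 higher and 5 lower, median -0.39), and cholangiocyte markers to 368 to 394 against 367 to 391 (0 of 4 called, median -0.01; 0 at an unadjusted p under 0.05). The dimmest marker with a probe set in each of these lists other than hepatocytes had a mean between 18.5 and 277 units.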

How the data were processed

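The authors' deposited table gave 1 intensity per probe set and array, in whole numbers on a linear scale, for 35512 probe sets; the sources used here do not give how probes were summarised, corrected and normalized. Per the labels' protocols, column-purified RNA was copied into cDNA and transcribed in vitro into biotinylated RNA. Columns were matched to mice by sample identifier. Values entered as deposited and were transformed as log2(value + 16). Array medians differed by up to 0.101 on the log2 scale, slightly over the limit set for further scaling. Scaled values were fitted only as alternatives. With centred arrays 26 members and 40 other pathway genes were called higher, beside 30 and 54 with values as deposited. Probe sets with a mean under the 25th percentile were left out. The remaining 26634 were fitted with limma 3.58.1 in R 4.3.3 (lmFit, eBayes with trend; Benjamini-Hochberg over all probe sets). All 47 member probe sets passed this filter. The procedure was tested on simulated data. Gene names are those of the platform annotation, which may be out of date, and promoters come from RefSeq (GRCm38.p6). Named genes are all members, with values for each mouse for up to 4 called members of a role by smallest p, the uncalled member with the largest change and members on 2 probe sets, up to 3 called genes a direction of each related list by smallest p, and Myc. Bop1, Mnt, Mxi1 and the snoRNAs were chosen after their values were seen. Members and lists were chosen with earlier results of these data known. Alternatives were pseudocounts of 1 and 64, quantile normalization, median centring, filtering at the 50th percentile or not at all, eBayes with no trend or a robust prior, array weights, the mean of a gene's probe sets, and each mouse left out. Figures were drawn with matplotlib 3.10.9.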

Additional observations from a re-analysis of the deposited data

How the results depend on the processing

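With all alternatives, the number of members called higher ranged from 21 (without knock-in replicate 5) to 32 and their median log2 change from 0.48 to 0.61, and the number of other pathway genes called higher from 37 to 64. Members called lower, 0 of 45 with all mice, numbered 2 with array weights (Utp6 and Wdr12) and 0 to 1 with 1 mouse left out (Utp6, without knock-in replicate 3). Of the 114 other pathway genes 1 (Tsr3) was called lower with centred arrays and with quantile normalization. Over all probe sets, 6888 were called, and 4252 to 7728 with 1 mouse left out, the fewest on leaving out knock-in replicate 1, then 4478 and 4551 on leaving out wild-type replicates 2 and 6. Of the 30 members called higher, 11 lost the call under at least 1 alternative, and of the 15 not called 5 gained one. The sign of 2 uncalled genes turned. Nop16 was -0.03 with array weights and with centred arrays and -0.05 to 0.08 with 1 mouse left out. Nop10 was 0.00 with quantile normalization and -0.15 to 0.04 with 1 mouse left out. The causes were not tested. No paired analysis was made, since the labels give no pairing of knock-in with wild-type mice. The number of arrays, 3 per genotype, limits the precision, and dim probe sets have compressed changes.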

Other observations

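SnoRNA probe sets outside the member genes, looked at after the values of the hosted ones were seen, held the largest snoRNA changes. Snord16a, a box C/D RNA, read 1082, 1122 and 1385 in knock-in and 295, 258 and 324 in wild-type mice (log2 change 1.97 ± 0.13; limma adjusted p = 0.000253). Snord14e read 276, 281 and 309 against 996, 637 and 643, the only 1 of the 51 called lower (-1.32 ± 0.18; adjusted p = 0.00242). Snord37, Snord95 and Snord8 rose by 0.67 ± 0.12, 0.49 ± 0.13 and 0.39 ± 0.09. Snord104 read 10708, 13096 and 3737 in knock-in and 12583, 2053 and 13086 in wild-type mice, so that it differed far more between mice of a genotype than between the genotypes' means of 9180 and 9241. The typical spread within a genotype (median over probe sets of the pooled SD on the log2 scale) was 0.29 for the 51 snoRNA probe sets and 0.15 for the 45 ribosome biogenesis genes.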
